A study of Drosophila melanogaster with 6 samples.

Results

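The vacuolar H+-ATPase (V-ATPase) of the fly head is described here through the genes whose symbols start with Vha. On the array, 31 of the 11982 genes with a named probe set carried such a symbol, measured by 32 of the 18769 probe sets tested. Where a gene had more than 1 probe set, the one with the highest mean signal stood for it. The samples were whole heads of mated female Drosophila melanogaster of genotype w1118, a white-eyed laboratory strain that both diet groups share. The high fat diet group had 7 days on medium with 20% (w/v) coconut oil, and the normal diet group had 7 days on the same medium without it. Both had first been mated for 48 hours with isogenic males, and the diet was given at 23 degrees C in most cases. Each diet had 3 arrays, each with RNA pooled from 25 to 50 heads, so an array averages over flies and over all the tissues of the head. The design text calls the samples biological replicates. The age at collection spans several days in the labels, and no allele other than w1118 is given.

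The V-ATPase is a rotary proton pump. Its cytosolic V1 sector hydrolyses ATP: subunits A and B form the catalytic head, D and F the central shaft, and C, E, G and H the peripheral stalks and the regulatory contacts. The membrane V0 sector carries the protons: the proteolipids c and c'' form the turning ring, subunit a provides the proton path, d joins the ring to the shaft, and e is a small membrane protein. The pump acidifies lysosomes and endosomes, loads synaptic vesicles by driving the transmitter transporters, and in insects also energises the plasma membrane of epithelia such as Malpighian tubules and midgut. Most subunits have 1 broadly expressed gene in the fly, and several have additional paralogs known from a few tissues, many from the testis.

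Genes were placed in classes from this general knowledge and not from the arrays: 13 broadly expressed genes, 1 neuronal form (Vha100-1) and 17 additional, tissue-restricted paralogs. VhaM9.7-a and VhaAC45RP were placed among the additional paralogs with less certainty than the others. The broad genes covered every subunit except A, whose genes Vha68-1 and Vha68-2 were not analysed here. All 13 broad genes and Vha100-1 were above background on all 6 arrays. Of the 17 additional paralogs, 5 were above background on all 6 arrays, 9 on some and 3 on none. The background of an array was taken from 50 control probe sets that carry the names of foreign proteins: their 95th percentile was 15.2 to 21.8 signal units over the 6 arrays. Signal cannot be compared between probe sets of different genes, so each gene is set only against background and against itself.

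**Figure D1:**
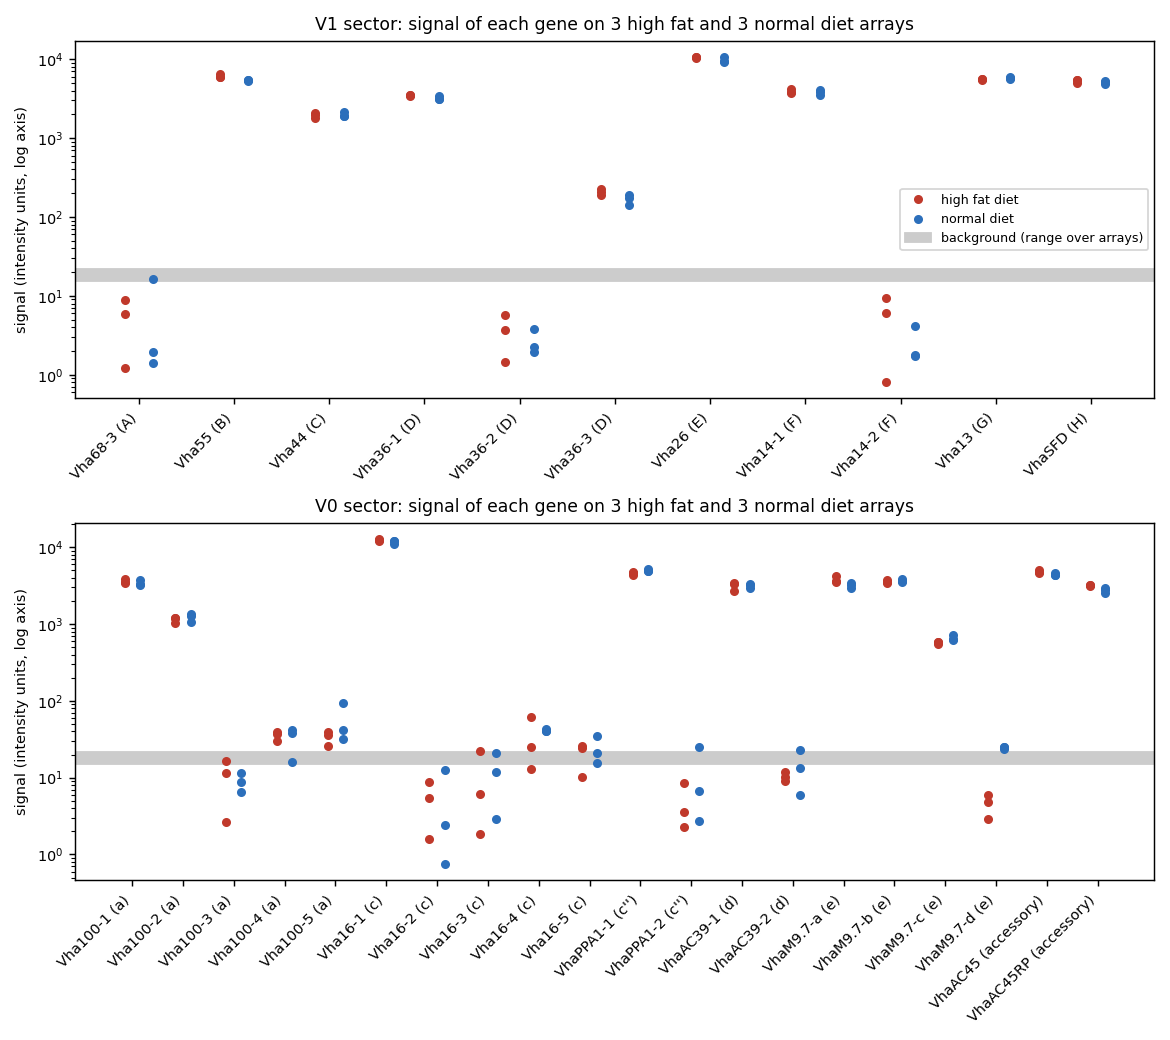
Signal of the 31 V-ATPase genes (intensity units on a log axis) on the high fat (red, left) and normal diet (blue, right) arrays, by sector and subunit (in brackets), with the range of background in grey. The 13 broad genes and Vha100-1 lie far above background in both diets. Of the additional paralogs, Vha36-3, VhaM9.7-a, VhaM9.7-c, VhaAC45RP and, less far above it, Vha100-5 lie above it on all arrays. The others do not lie above it on every array.

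No V-ATPase gene passed the test for a change with diet. By limma with Benjamini-Hochberg adjustment over all 18769 probe sets at 0.05, 0 of the 31 genes were called, against 0% of all probe sets higher and 0% lower. At an unadjusted p under 0.05 there was 1 of 31 (3.23%), VhaM9.7-d, against 7.86% of all probe sets. Of the 19 members above background on all arrays 0 had such a p, against 7.25% of all probe sets above it on all arrays. Over all 31 members the values of the diets did not overlap in 9, against 17.7% of all probe sets. Among the 19 members above background on all arrays, the values of the diets did not overlap in 8 (42.1%), 6 higher and 2 lower on high fat. Over all probe sets above background on all arrays that share was 22.8%, with 11.5% higher and 11.3% lower. The 31 members share the same 6 arrays and are not independent of each other.

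None of the catalytic and stalk genes of V1 given here was called, and their average changes were at most 1.13-fold. Vha55, the only gene of subunit B, had 5904, 6447 and 5881 signal units on the high fat arrays, against 5303, 5385 and 5447 on the normal diet arrays. Every high fat value lay above every normal diet value, by 1.13-fold on average (log2 change 0.17, SE 0.11, limma adjusted p = 0.645). The sign turned when arrays were centred on neuron markers (-0.10). That centring lowers the log2 change of every gene by the same amount, and it moved the median of all probe sets from -0.03 to -0.31. A sign turned by it, here and below, is therefore no finding about a single gene. Vha26, subunit E of the stalk, had 10646, 10453 and 10494 on high fat, against 9290, 9599 and 10579 on the normal diet. Here normal diet replicate 3 lay within the high fat values (log2 change 0.10, SE 0.11), and the sign also turned when centred on neuron markers (-0.17). Vha44, subunit C, which clamps V1 to V0, had 1815, 2086 and 1977 on high fat, against 1896, 2112 and 1879 on the normal diet, with overlap. Its log2 change was -0.0025 (95% confidence interval -0.31 to 0.31). Vha13, subunit G, had 5659, 5424 and 5611 on high fat, against 5961, 5574 and 5770 on the normal diet (log2 change -0.05, SE 0.10). VhaSFD, the regulatory subunit H, had 4962, 5449 and 5445 on high fat, against 5276, 4849 and 5199 on the normal diet (log2 change 0.05, SE 0.11). In both genes the diets overlapped.

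The shaft genes include a broad member and additional paralogs that differ in detection. Vha36-1, the broad gene of subunit D, had 3526, 3548 and 3444 on high fat, against 3119, 3384 and 3093 on the normal diet. The high fat values were all higher, by 1.10-fold on average (log2 change 0.13, SE 0.11, limma adjusted p = 0.700), with the sign turned by centring on neuron markers (-0.14). Its paralog Vha36-3 had 210, 189 and 225 on high fat, against 173, 188 and 142 on the normal diet. These values did not overlap either, though high fat replicate 2 and normal diet replicate 2 lay within about 1 unit of each other (log2 change 0.32, SE 0.16, limma adjusted p = 0.614). The third paralog, Vha36-2, had 1.46 to 5.74 on high fat and 1.93 to 3.78 on the normal diet, below background on every array. Subunit F showed the same contrast. Vha14-1 had 4131, 3873 and 3730 on high fat, against 3791, 3494 and 4050 on the normal diet (log2 change 0.05, SE 0.12), and Vha14-2 had 0.812 to 9.40 on high fat and 1.71 to 4.16 on the normal diet, below background throughout. Of subunit A only the paralog Vha68-3 was measured, at 8.97, 5.82 and 1.22 on high fat, against 16.3, 1.42 and 1.95 on the normal diet. It was above background on normal diet replicate 1 alone.

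In the membrane sector the proton path subunit a had 3 genes above background on all arrays. Vha100-1, known from synapses and photoreceptors, had 3530, 3446 and 3861 on high fat, against 3326, 3698 and 3243 on the normal diet. The diets overlapped (log2 change 0.08, SE 0.12, 95% confidence interval -0.23 to 0.38). Vha100-2, the broad form, had 1197, 1209 and 1041 on high fat, against 1351, 1074 and 1260 on the normal diet (log2 change -0.09, SE 0.14). Vha100-5 was close to background, at 38.9, 25.5 and 36.1 on high fat, against 93.2, 41.8 and 31.6 on the normal diet. The high value of normal diet replicate 1 carried much of its log2 change of -0.59 (SE 0.45, limma adjusted p = 0.691), which was -0.14 without that array. That array also had the most signal of midgut markers, and the part of midgut tissue in the Vha100-5 value was not tested. Vha100-4, which directly neighbours Vha100-2 in the RefSeq gene table of Release 6, had 29.6 to 39.7 on high fat and 15.9 to 42.1 on the normal diet, above background on 5 arrays. Vha100-3 was above background on high fat replicate 2 alone, at 16.5.

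The ring proteolipids were represented by 1 well-measured gene of each type. Vha16-1, the broad gene of subunit c, had 12312, 12762 and 12044 on high fat, against 10987, 12049 and 11923 on the normal diet. High fat replicate 3 lay just under the highest normal diet value (log2 change 0.09, SE 0.11). Its second probe set had 6713, 5479 and 6806 on high fat, against 6342, 7280 and 7658 on the normal diet, a log2 change of the opposite sign (-0.17, SE 0.15). VhaPPA1-1, subunit c'', had 4732, 4355 and 4650 on high fat, against 4879, 4888 and 5207 on the normal diet. All high fat values were lower (log2 change -0.12, SE 0.11, limma adjusted p = 0.717), and the sign turned with median centring (0.14), which moved the median of all probe sets from -0.03 to 0.23. The other ring genes were dim. Vha16-4 was above background on 5 arrays, at 61.4, 12.95 and 25.3 on high fat, against 42.9, 40.9 and 40.3 on the normal diet. Vha16-5 was above background on 4 arrays (10.3 to 26.2 on high fat and 15.6 to 35.3 on the normal diet). Vha16-3 and VhaPPA1-2 were each above background on 1 array, Vha16-3 at 21.9 on high fat replicate 3 and VhaPPA1-2 at 24.9 on normal diet replicate 1. Vha16-2 was above background on none, with at most 8.89 on high fat and 12.6 on the normal diet. VhaPPA1-2 and VhaPPA1-1 are near neighbours in the genome, with 1 gene between them.

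Subunit d and the accessory glycoproteins of V0 followed. VhaAC39-1, the broad subunit d, had 3321, 2665 and 3375 on high fat, against 3237, 2935 and 3322 on the normal diet, with overlap (log2 change -0.03, SE 0.15). Its paralog VhaAC39-2 was above background on normal diet replicate 3 alone, at 22.7. VhaAC45, the counterpart of mammalian ATP6AP1, had 4626, 5005 and 4755 on high fat, against 4331, 4377 and 4599 on the normal diet, all high fat values higher (log2 change 0.11, SE 0.11, limma adjusted p = 0.738), with the sign turned by centring on neuron markers (-0.16). VhaAC45RP, a paralog of VhaAC45 placed among the additional genes, was far above background, with 3127, 3228 and 3192 on high fat, against 2765, 2970 and 2559 on the normal diet. Its high fat values were all higher, by 1.15-fold on average (log2 change 0.21, SE 0.11, limma adjusted p = 0.626), with the sign turned by centring on neuron markers (-0.07).

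The small subunit e had 4 genes on the array, 3 of them above background on all arrays. VhaM9.7-b, the broad form, had 3736, 3574 and 3475 on high fat, against 3663, 3502 and 3866 on the normal diet, with overlap (log2 change -0.03, SE 0.11). VhaM9.7-a had 3655, 4221 and 3508 on high fat, against 3183, 3400 and 2921 on the normal diet, all high fat values higher, by 1.20-fold on average (log2 change 0.26, SE 0.13, limma adjusted p = 0.617), with the sign turned by centring on neuron markers (-0.02). VhaM9.7-c had 577, 581 and 558 on high fat, against 630, 648 and 714 on the normal diet, all high fat values lower (log2 change -0.21, SE 0.11, limma adjusted p = 0.617). The sign of VhaM9.7-c turned with median centring (0.06), while that of VhaM9.7-a did not (0.53).

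VhaM9.7-d had the smallest unadjusted p of the 31 genes. It had 4.89, 2.87 and 5.98 on high fat, all below background, against 25.3, 23.7 and 25.2 on the normal diet, all above it. The signal was at least 1.33-fold lower on high fat when the high fat values were raised to background (mean log2 2.13 on high fat and 4.63 on the normal diet, limma adjusted p = 0.183). With the floor raised to 16 signal units the log2 change was -0.63 in place of -2.50, so its size rests on values under background. Markers of ovary, which were lower on high fat, and of testis, which went both ways, are given with the other tissues, and their part in this value was not tested.

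**Figure D2:**
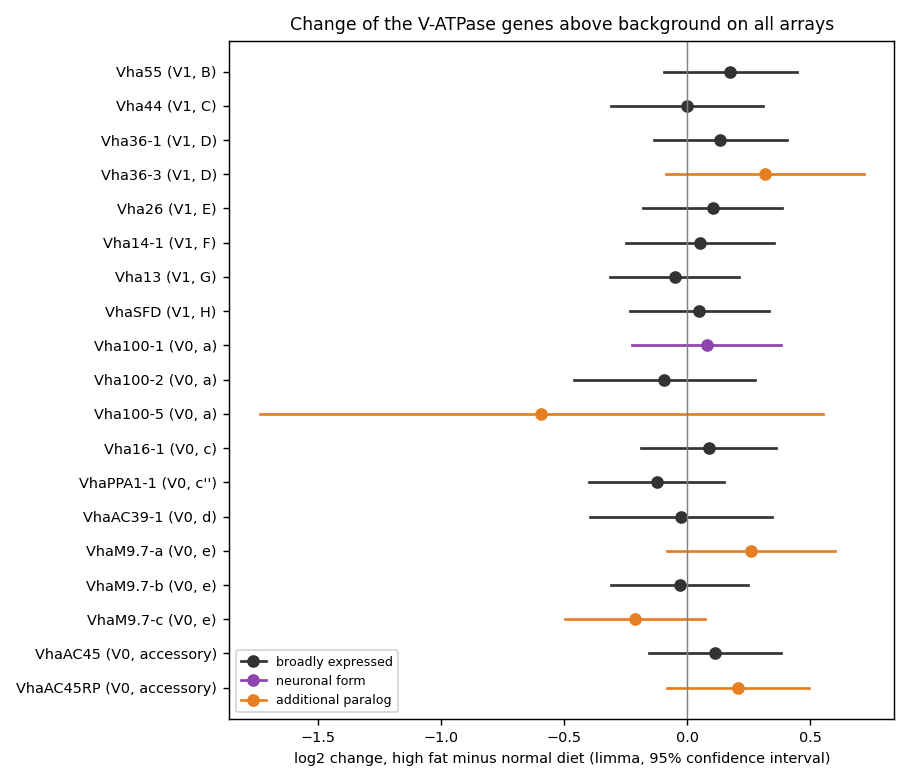
Log2 change, high fat minus normal diet, with the 95% confidence interval of the limma fit, for the 19 V-ATPase genes above background on all 6 arrays, by sector and subunit. Every interval includes 0; the broad genes lie between -0.12 (VhaPPA1-1) and 0.17 (Vha55), and the interval of Vha100-5 is the widest.

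As a group the 13 broad genes had a median log2 change of 0.05, with 7 higher and 6 lower means on high fat, beside a median of -0.03 over all probe sets; the sign turned after quantile normalization (-0.03) and with arrays centred on neuron markers (-0.23). The median was 0.05 for the 7 broad genes of V1 and -0.03 for the 6 of V0. Under the main setting the 95% confidence interval of all 13 lay within 1.5-fold in either direction. That bound depends on the scaling: with median centring the log2 change of Vha55 was 0.44. The replicates were tight: the median SD within a diet was 0.06 log2 units for the broad genes, against 0.17 for all probe sets above background on all arrays, which include dimmer ones. The 17 additional paralogs had a median log2 change of -0.13, with 8 higher and 9 lower means; most of these values lie near or under background, and without dim probe sets the median was -0.0037. The 5 additional paralogs above background on all arrays went both ways, with 3 higher and 2 lower means.

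Ratios of paralogs of 1 subunit within an array do not depend on a scaling factor applied to that array, so the 8 pairs with both genes above background on all arrays were compared by an exact permutation test over arrays, two-sided, which cannot go below 0.10 with 3 arrays against 3. The log2 ratio of VhaM9.7-a over VhaM9.7-c was 2.66, 2.86 and 2.65 on high fat, against 2.34, 2.39 and 2.03 on the normal diet. The difference was 0.47, a shift of the ratio by 1.39-fold, with no overlap (exact permutation p = 0.10, adjusted p = 0.267 over the 8 pairs). The ratio of VhaM9.7-a over VhaM9.7-b differed by 0.29 and that of VhaM9.7-b over VhaM9.7-c by 0.18, each without overlap and at the same exact permutation p. All 3 pairs of subunit e thus reached the smallest p that this design allows, and they share genes. As VhaM9.7-a was higher and VhaM9.7-c lower without overlap, their ratio had to separate the diets. The p of that pair therefore adds nothing to the values of the genes. The other 5 pairs overlapped: Vha36-1 over Vha36-3 differed by -0.18 (exact permutation p = 0.30) and VhaAC45 over VhaAC45RP by -0.09 (exact permutation p = 0.50). The ratios among Vha100-1, Vha100-2 and Vha100-5 differed by 0.17 to 0.67 (exact permutation p between 0.20 and 0.50).

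**Figure D3:**
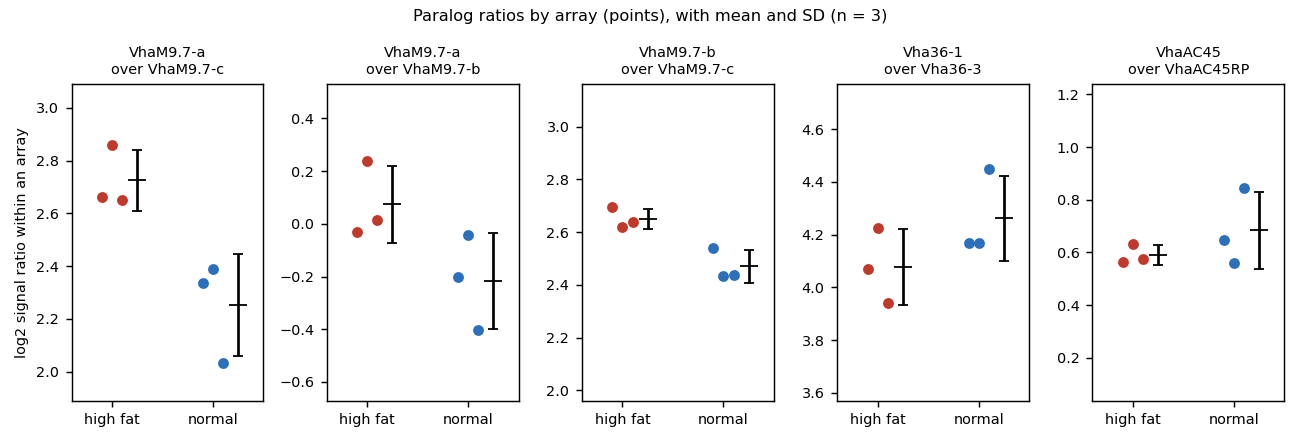
Log2 ratio of the signals of paralogs within each array, high fat (red, left) and normal diet (blue, right), with mean and SD (n = 3 arrays per diet). The height of a ratio depends on the probes and has no meaning between panels; the diets do not overlap in the 3 panels of subunit e and overlap in the 2 others.

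Cell type markers of the head were present, and none was called. The neuron markers elav and nSyb and the glial marker repo were above background on all arrays. The 8 measured neuron markers had a median log2 change of 0.30, with 8 higher, 5 of them without overlap and 0 called. Higher values without overlap were found in 11.5% of the 10703 probe sets that exceeded background on every array. The summed signal of the neuron markers was 20203 to 20961 on high fat and 16087 to 18979 on the normal diet. The 7 photoreceptor markers had a median of 0.30 and the 6 muscle markers one of 0.26, with 7 and 5 higher means. Of the 5 additional paralogs above background on all arrays, VhaM9.7-a, VhaAC45RP and Vha36-3 had higher means on high fat and were, like the mean of the neuron markers, lowest on normal diet replicate 3; VhaM9.7-c and Vha100-5 had lower means. With each array centred on the neuron markers, a setting chosen after the data were seen, the log2 change was -0.02 for VhaM9.7-a, -0.07 for VhaAC45RP and 0.04 for Vha36-3. The median of the broad genes was then -0.23 and VhaM9.7-c was at -0.49. The median of all probe sets was then -0.31, since this centring lowers every log2 change by the same amount. The size of the neuron marker shift depended on the choice of probe set. With a gene's probe sets averaged, the median of the neuron markers was 0.17 in place of 0.30. Centring on such averages was not tested. In whole heads a change in the share of a tissue and a change of RNA per cell cannot be told apart.

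Of the markers of tissues outside the head, those of the ovary and of the midgut had lower means on high fat. All 13 ovary markers had a lower mean, with a median log2 change of -2.99, and 0 were called by limma. The diets did not overlap in 9, against 17.7% of all probe sets. An unadjusted limma p under 0.05 was reached by 9, against 7.86% of all probe sets. The ovary marker osk had 13.6, 16.2 and 19.5 on high fat, against 1664, 416 and 2124 on the normal diet, and yl was below background on high fat. Their summed signal was 4987 to 5074 on high fat, most of it from gus, which had 3548 to 3658 there, and 5786 to 18963 on the normal diet, where replicate 2 was the lowest, and 0 of the ovary and midgut values were at 0. All 9 midgut markers also had a lower mean, with a median log2 change of -0.74 (-0.37 with values under background raised to it) and 0 called. Only 3 of them were above background on all arrays, and the diets did not overlap in 1 of the 9. The midgut markers summed to 236 to 311 on high fat and to 299 to 3190 on the normal diet, highest on replicate 1. Among them alphaTry had 779 there and at most 48.6 elsewhere. The 20 testis markers had 12 higher and 8 lower means and summed to 338 to 421 on high fat and 340 to 381 on the normal diet, with 7 above background on no array, dj among them, and Mst98Ca above it on 5 arrays. In 1 of the 20, comr, the diets did not overlap, against 17.7% of all probe sets. It had 4.40, 4.61 and 4.82 on high fat, against 16.6, 14.0 and 11.6 on the normal diet (limma adjusted p = 0.144). Only 1 of these values was above background. Against normal diet replicate 2 alone, without the arrays with most ovary signal, the log2 change was 0.15 for VhaM9.7-a, 0.10 for VhaAC45RP, 0.14 for Vha36-3, -0.18 for VhaM9.7-c and -2.44 for VhaM9.7-d. For the ratio of VhaM9.7-a over VhaM9.7-c it was 0.33. Normal diet replicate 2 still held ovary signal (osk 416, against 13.6, 16.2 and 19.5 on high fat), so these changes are not free of it. The part of these tissues in the other values was not tested. The 3'/5' signal ratio of Act5C controls was 20.4 on high fat replicate 2 and 10.5 to 13.2 on the others.

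**Figure D4:**
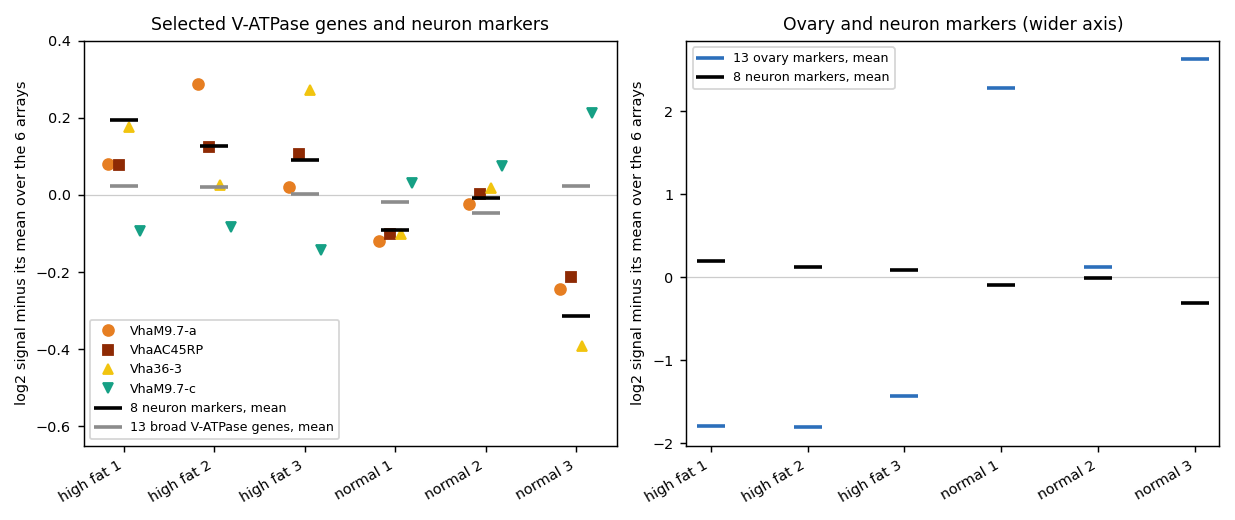
Log2 signal minus its mean over the 6 arrays, for 4 additional V-ATPase paralogs, the mean of 8 neuron markers and the mean of 13 broad V-ATPase genes (left), and for ovary and neuron markers on a wider axis (right). The broad genes stay between -0.05 and 0.02, the neuron markers lie between 0.19 on high fat replicate 1 and -0.31 on normal diet replicate 3, and VhaM9.7-c is highest where VhaM9.7-a is low.

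Genes that work with the pump were not called either. Among 4 measured partners, 3 had higher means on high fat and 0 passed. Rbcn-3B, a subunit of the rabconnectin complex that assembles the pump, had 1837, 1853 and 1752 on high fat, against 1728, 1587 and 1733 on the normal diet, without overlap (log2 change 0.11, SE 0.11). Mitf, the transcription factor known to drive V-ATPase and lysosomal genes in the fly, had 224, 166 and 198 on high fat, against 166, 210 and 136 on the normal diet, with overlap (log2 change 0.21, SE 0.22). ATP6AP2, an accessory protein of the pump, had a log2 change of -0.08 (SE 0.12).

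Lysosomal genes and a list of vesicular transporters, ion exchangers and a chloride channel also held 0 calls. Of 19 lysosomal genes 13 had a higher mean on high fat, with a median log2 change of 0.09. CtsK1, a cathepsin-type cysteine protease, had 2834, 3230 and 3171 on high fat, against 3723, 3634 and 5058 on the normal diet, all high fat values lower (log2 change -0.41, SE 0.17, limma adjusted p = 0.610). Gal, a beta-galactosidase, was higher without overlap (log2 change 0.28, SE 0.14), and Ppt1, a palmitoyl-protein thioesterase, lower without overlap (-0.22, SE 0.12). Of the 12 genes of that second list, which counts the chloride channel ClC-a, 9 had a higher mean, with a median of 0.16. Vmat, which loads monoamines into vesicles, had 1404, 1522 and 1371 on high fat, against 1149, 699 and 1241 on the normal diet, without overlap (log2 change 0.52, SE 0.25, limma adjusted p = 0.612). Nha1, a sodium/proton antiporter, had a log2 change of 0.37 (SE 0.16) and ClC-a, a chloride channel, one of 0.31 (SE 0.20). The median of the neuron markers was 0.30, and the part of neuronal tissue in these values was not tested.

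The mitochondrial ATP synthase, a related rotary machine that runs in the other direction, was set beside the pump. Its 16 measured genes had a median log2 change of 0.02, with 8 higher means and 0 calls. Among the 14 above background on all arrays the diets did not overlap in 0, against 22.8% of all such probe sets. As in the V-ATPase, the paralogs with the widest changes were dim: ATPsynbetaL had a log2 change of -0.85 (SE 0.55), ATPsynCF6L one of -0.84 (SE 0.59) and ATPsynepsilonL one of 0.73 (SE 0.56). Whether the V-ATPase genes differed from these was not tested.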

How the data were processed

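RNA of 6 samples was hybridised to Affymetrix Drosophila arrays. The deposited values are linear signal intensities made with Affymetrix Expression Console, per the submitters' processing notes; the sources used here give neither its version nor the summarisation method. On every array the mean trimmed by 2% at either end was 500. Values under 1 (2010 of them) were set to 1 and log2 was taken; 183 control probe sets were left out. limma 3.58.1 in R 4.3.3 (lmFit, eBayes) compared high fat with normal diet over 18769 probe sets, Benjamini-Hochberg adjusted, threshold 0.05; log2 changes are high fat minus normal diet. Gene names came from the platform annotation (13647 probe sets with 1 symbol, 402 with several, 4720 unnamed here); all 31 genes matched the RefSeq table. Of the 19 members above background on all arrays, 6 have a probe set whose name marks probes shared by several transcripts. Tested on simulated data of this comparison with 18769 probe sets, limma recovered 36 of 100 changes of 1 log2 unit and 82 of 100 of 2, with 7 false calls. The changes were placed only in probe sets above background on all arrays, and values were drawn independently. These rates therefore do not cover dim genes or smaller changes. Same-numbered arrays did not deviate together (correlations -0.02, -0.0034 and 0.01), so the numbers were not taken as pairs. Arrays correlated at 0.939 to 0.955 and shared at most 0.00533% of values.

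Values on each array are given for members above background on all arrays, and for others above it somewhere whose diets did not overlap or whose unadjusted p was under 0.05; of each list, up to 3 genes with the smallest p above background, and the defining markers. Other members, gus, salt and comr were given after their values were seen, and VhaM9.7-d was already known. The members and lists were chosen with earlier results of these data known. The number of arrays limits the precision. Alternatives were other scalings, floors, filters, spread estimates, probe set rules, a replicate block and left-out arrays.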

Additional observations from a re-analysis of the deposited data

How the results depend on the processing

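No V-ATPase gene was called by limma under the main setting (1 of 31 at an unadjusted p under 0.05) or under any of the 16 alternatives. Across all probe sets the count was 0 (1475 at an unadjusted p under 0.05); it was 26 with trend and robust moderation, 6 without dim probe sets, 0 to 167 when 1 array was left out (167 without normal diet replicate 2) and 3 with arrays centred on the neuron markers. With the replicate block 0 probe sets and 0 V-ATPase genes were called, and it changed no call. The median of the broad genes (0.05) was -0.0303 after quantile normalization, 0.32 after median centring, which moved the median of all probe sets from -0.03 to 0.23, -0.0025 with a gene's probe sets averaged (Vha16-1 alone has more than 1), -0.23 centred on neuron markers and 0.01 to 0.06 without 1 array. The median of the additional paralogs (-0.13) was 0.14 after median centring, -0.22 to 0.15 without 1 array, 0.10 without normal diet replicates 1 and 3 and -0.41 centred on neuron markers. Of 20 V-ATPase genes given by array, 7 changed sign with median centring, 10 centred on neuron markers, and 0 to 4 under each other setting. Those that turned when centred on neuron markers were Vha100-1, Vha14-1, Vha16-1, Vha26, Vha36-1, Vha55, VhaAC45, VhaAC45RP, VhaM9.7-a and VhaSFD. Centring on neuron markers lowered every log2 change by the same amount and moved the median of all probe sets from -0.03 to -0.31. Small positive changes therefore had to turn. The ratio of VhaM9.7-a over VhaM9.7-c cannot move with most settings; it was 0.36 after quantile normalization, 0.36 to 0.54 without 1 array and 0.33 without normal diet replicates 1 and 3. The adjusted p of VhaM9.7-d ranged from 0.0599 to 0.564. Centring on neuron markers or on broad V-ATPase genes and leaving out normal diet replicates 1 and 3 were chosen after the data were seen; the last leaves 1 normal diet array, assumed to vary like the others. Causes were not tested. Signal near background limits what can be said of the dim paralogs.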

Other observations

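The V-ATPase is also part of the platform on the lysosome that activates the growth kinase TORC1. Of 11 measured genes of that platform and its targets, 7 had a higher mean on high fat, and the median log2 change was 0.04. By limma 0 passed, and 0 had an unadjusted p under 0.05, against 7.86% of all probe sets. Atg1, the kinase that starts autophagy, had 2277, 2355 and 2319 signal units on high fat, against 2051, 2241 and 2116 on the normal diet, without overlap (log2 change 0.12, SE 0.11). raptor, the scaffold of TORC1, had a log2 change of -0.33 (SE 0.24) and Sesn, which restrains it, one of -0.19 (SE 0.18), both with overlapping diets. The 9 measured Malpighian tubule markers, a tissue rich in the pump, had 6 higher and 3 lower means and summed to 3243 to 3462 on high fat and to 2721 to 3238 on the normal diet, mostly through Irk2, Drip and Oatp58Dc. The marker of that list with the smallest p, salt, had 4.81, 12.0 and 1.81 on high fat, all below background, against 110.4, 23.8 and 53.3 on the normal diet. The 7 fat body markers summed to 103975 to 112089 on high fat and to 90875 to 116352 on the normal diet, with a median log2 change of 0.12. The 7 glial markers had a median of 0.04.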
